A study of Mus musculus with 18 samples.

Results

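The clustered histone genes encode the linker histone H1 and the core histones H2A, H2B, H3 and H4, the proteins around which DNA is wound. Their transcripts were taken here as all rows of the deposited count table whose symbol begins with Hist1h, Hist2h, Hist3h or Hist4h, without symbols ending in -ps, that held at least 30 counts over the 18 libraries. The table of 24514 genes held 69 rows of this name, of which 1 was a -ps row and 12 fell below 30 counts, 7 of them at 0 counts in all libraries. The remaining 56 genes, called members below, comprised 5 H1, 14 H2A, 15 H2B, 10 H3 and 12 H4 genes. Around the limit of 30 counts, Hist1h1t with 23 counts and Hist1h2aa with 22 counts were the highest rows left out.

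RNA came from the line iMGT-Myh6-eGFP-MEF, mouse embryonic fibroblasts in which doxycycline switches on the reprogramming factors Mef2c, Gata4 and Tbx5 and which carry a green fluorescent reporter of the heart gene Myh6. Cells received a control siRNA (siControl) or an siRNA against Chst7 (siChst7), a carbohydrate sulfotransferase, and were sampled at day 0 without doxycycline and at days 1 and 3 of doxycycline at 1 µg/mL. Each of the 6 groups had 3 biological replicates, each pooled from 40 wells seeded with 1000 cells, so that all groups share the line and the transfection, and the day 0 groups alone lack doxycycline. Whether the replicates were separate transfections is not stated, so that the p-values measure the spread between these samples. Libraries were made with a poly-A selection kit.

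Replication-dependent histone genes work differently from other protein-coding genes. Their messages usually end just after a short RNA stem-loop bound by the stem-loop binding protein Slbp and carry no poly-A tail, and they accumulate while cells copy their DNA. Some members also give longer, polyadenylated messages that run past or splice around the stem-loop, and poly-A selected libraries are expected to hold such forms. The values below are therefore levels of what was captured after poly-A selection, not levels of all histone messages. In bulk RNA, fewer cells with a transcript and less of it per cell cannot be told apart.

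The stem-loop was present as an exact match in a GENCODE transcript (GRCm38) of 39 of the 56 members. In 20 of these 39 the annotated transcript runs 100 bases or more past it, as a form ending at a later poly-A site would, and in 19 it ends sooner. Some annotated transcripts without a match are shorter than the deposited length, for example 312 against 409 bases for Hist1h4k. A missing match there does not show that the gene lacks the stem-loop. The 30-base windows of 6 members are shown 5′ to 3′, since they mark where a tailless message would end. Capitals mark the 16-base stem-loop.
Hist1h1c: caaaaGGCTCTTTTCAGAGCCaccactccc
Hist3h2a: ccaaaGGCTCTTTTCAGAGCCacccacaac
Hist1h2be: ccaaaGGCTCTTTTCAGAGCCacccaacag
Hist1h2bj: ccaaaGGCTCTTTTCAGAGCCacgcacaat
Hist1h4i: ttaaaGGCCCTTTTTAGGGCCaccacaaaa
Hist1h4h: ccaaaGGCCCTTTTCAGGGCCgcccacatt
The H1, H2A and H2B windows shown share 1 stem-loop sequence, and the H4 windows carry another stem. Hist1h1c lies at chr13:23738808-23740367 on the + strand, a single exon whose annotated transcript runs 840 bases past the stem-loop. Hist3h2a lies at chr11:58954685-58956830 (+) and runs 1643 bases past it. Hist1h4i, at chr13:22040636-22041362 (-), runs 330 bases past it, and Hist1h2be, at chr13:23583670-23621124 (-), runs 1861 bases past it. Hist1h2bj, at chr13:22043214-22043676 (+), and Hist1h4h, at chr13:23531050-23531519 (+), end 23 and 46 bases after it. In all, 13 members had a poly-A signal, AATAAA or ATTAAA, in the last 40 bases of their annotated transcript. Hist1h2bc, the second most abundant member, is annotated at chr13:23684199-23692908 (+) as a spliced transcript without the stem-loop.

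Promoters are shown as a description of the members, and whether their motifs go with the siChst7 values was not tested. RefSeq (GRCm38.p6) gave a promoter for 50 of the 56 members, and the 250 bases before the start were searched on both strands. Of the 50, 42 (84.0%) held CCAAT, against 34.5% of 27025 genes, and only 3 of 11 H4 promoters (27.3%) held it, whereas all promoters found for H1, H2A, H2B and H3 did. The octamer ATTTGCAT, known from histone H2B promoters, was in 11 (22.0%), 6 of 13 H2A and 5 of 13 H2B, against 1.6% of all genes. TATAAA was in 25 of the 50, against 13.0% of all genes. The letters AAACACA, the H1 box, were in 4 of 5 H1 promoters and 6 of all 50, against 6.2% of all genes. The last 150 bases before the start are shown for 3 members that differ in the results that follow, with these motifs in capitals.
Hist1h1c: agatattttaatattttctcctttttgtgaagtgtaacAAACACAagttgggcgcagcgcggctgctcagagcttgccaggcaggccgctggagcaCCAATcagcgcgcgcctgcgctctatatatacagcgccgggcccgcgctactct
Hist3h2a: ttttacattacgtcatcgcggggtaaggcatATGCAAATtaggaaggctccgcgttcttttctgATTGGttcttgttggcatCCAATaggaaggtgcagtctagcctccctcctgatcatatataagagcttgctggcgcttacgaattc
Hist1h4i: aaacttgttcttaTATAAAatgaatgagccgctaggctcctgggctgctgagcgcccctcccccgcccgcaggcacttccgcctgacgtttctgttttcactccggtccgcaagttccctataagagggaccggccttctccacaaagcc
These stretches lie at chr13:23738657-23738806 (+), chr11:58954535-58954684 (+) and chr13:22041363-22041512 (-). The Hist1h1c promoter has the H1 box and CCAAT, that of Hist3h2a has the octamer and CCAAT, and that of Hist1h4i has neither octamer nor CCAAT. A match describes the letters and does not show that a factor binds.

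Libraries held 30590742 to 50021142 counts. Chst7 was 19.2 ± 0.546 counts relative to library size (CPM, mean ± SD, n = 3) in siControl and 0.438 ± 0.188 in siChst7 at day 0, 37.6 ± 2.61 and 0.755 ± 0.185 at day 1, and 25.1 and 2.16 CPM on average at day 3. The 12 fibroblast markers summed to between 9941 and 15150 CPM in every library, but single markers moved. In siControl cells, of 10 tested, 2 were called higher and 8 lower at day 1 than at day 0 (edgeR, adjusted p below 0.05). Of all tested genes 29.5% were called higher and 30.8% lower in that comparison. At day 3, 3 were called higher and 6 lower than at day 0, where 33.9% and 39.5% of all genes were. Dcn averaged 168.7 CPM at day 0 and 7.8 CPM at day 3. The 10 cardiomyocyte markers summed to 11.4 to 13.7 CPM in siControl cells at day 0 and to 843 to 910 CPM at day 3. Sums were 18.9 to 65.7 CPM for 7 macrophage and leukocyte markers, 0.241 to 4.07 for 6 endothelial and 0.223 to 2.72 for 6 epithelial markers, and no marker of these lists was at 0 in all libraries. Rn45s, the ribosomal RNA precursor, which has no poly-A tail, lay between 1366 and 6447 CPM in 17 libraries and at 19310 CPM (1.96% of counts) in replicate 1 of siChst7 at day 3, a library that stands apart.

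A few members supplied most of the signal. Averaged over the 18 libraries, Hist1h1c, a linker histone gene, stood at 34.2 CPM, 34.3% of the summed level of all members. Hist1h2bc (H2B) stood at 14.8 CPM, Hist3h2a (H2A) at 12.9 CPM, Hist1h2al at 7.10 CPM and Hist1h4i (H4) at 4.74 CPM. Of the 56 members, 12 reached a mean of 1 CPM, 21 reached 0.5 CPM, and 41 passed edgeR's filter on low counts, so 15 members have no test. Per kilobase of deposited gene length, Hist1h1c again came first with 47.2 CPM per kilobase, followed by Hist3h2a with 25.4, Hist1h2bc with 19.2 and Hist1h4i with 11.8.

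Several limits of counting bear on these levels. In 16 members the GENCODE transcript is at least 300 bases longer than the deposited length, for example 1560 against 725 bases for Hist1h1c and 2146 against 508 bases for Hist3h2a. The counts there cover only the bases of the shorter annotation. Reads of longer forms that fall within these bases can be counted too, so the counts do not separate the forms. Fewer than 50% of the 50-base stretches were unique within the annotated transcripts in 25 members, and how the authors' counting treated reads with several matches is not given in the sources used here, so counts of such near-identical genes are uncertain. Among the named genes this holds for Hist1h2al (32.4%), Hist1h2ah (9.3%), Hist2h2bb (46.4%), Hist1h2bj (40.6%) and Hist1h4k (28.5%). Exons of Hist1h2be and Hist1h1e overlap, as do those of Hist3h2a and Trim17, and without the strand setting their reads cannot be told apart. Hist1h2al is annotated as a pseudogene by RefSeq, over 2983 bases, and by GENCODE, over 339 bases.

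The summed level of the members was higher with siChst7 at each day. In siControl cells it was 101.6, 105.6 and 104.8 CPM at day 0, 67.7, 71.4 and 67.2 at day 1, and 74.9, 72.5 and 72.5 at day 3. In siChst7 cells it was 154.5, 151.8 and 142.9 CPM at day 0, 92.8, 95.0 and 95.7 at day 1, and 116.1, 99.2 and 110.6 at day 3. The groups did not overlap at any day, and the ratio of means was 1.44 at day 0, 1.37 at day 1 and 1.48 at day 3, or 1.43 at day 3 without siChst7 replicate 1. Without Hist1h1c the ratios were 1.37, 1.34 and 1.56. By class, the ratios at day 0 were 1.59 for H1, 1.09 for H2A, 1.59 for H2B, 1.55 for H3 and 1.43 for H4, and at day 3 they were 1.35, 1.19, 1.86, 1.87 and 2.07. The H2A sum consists mostly of Hist3h2a and of Hist1h2al, the annotated pseudogene. At day 3 these averaged 10.8 and 8.6 of 22.0 CPM in siControl and 12.6 and 9.5 of 26.1 CPM in siChst7 cells. A ratio for the other H2A genes was not computed. These sums are descriptions with no test.

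**Figure D1:**
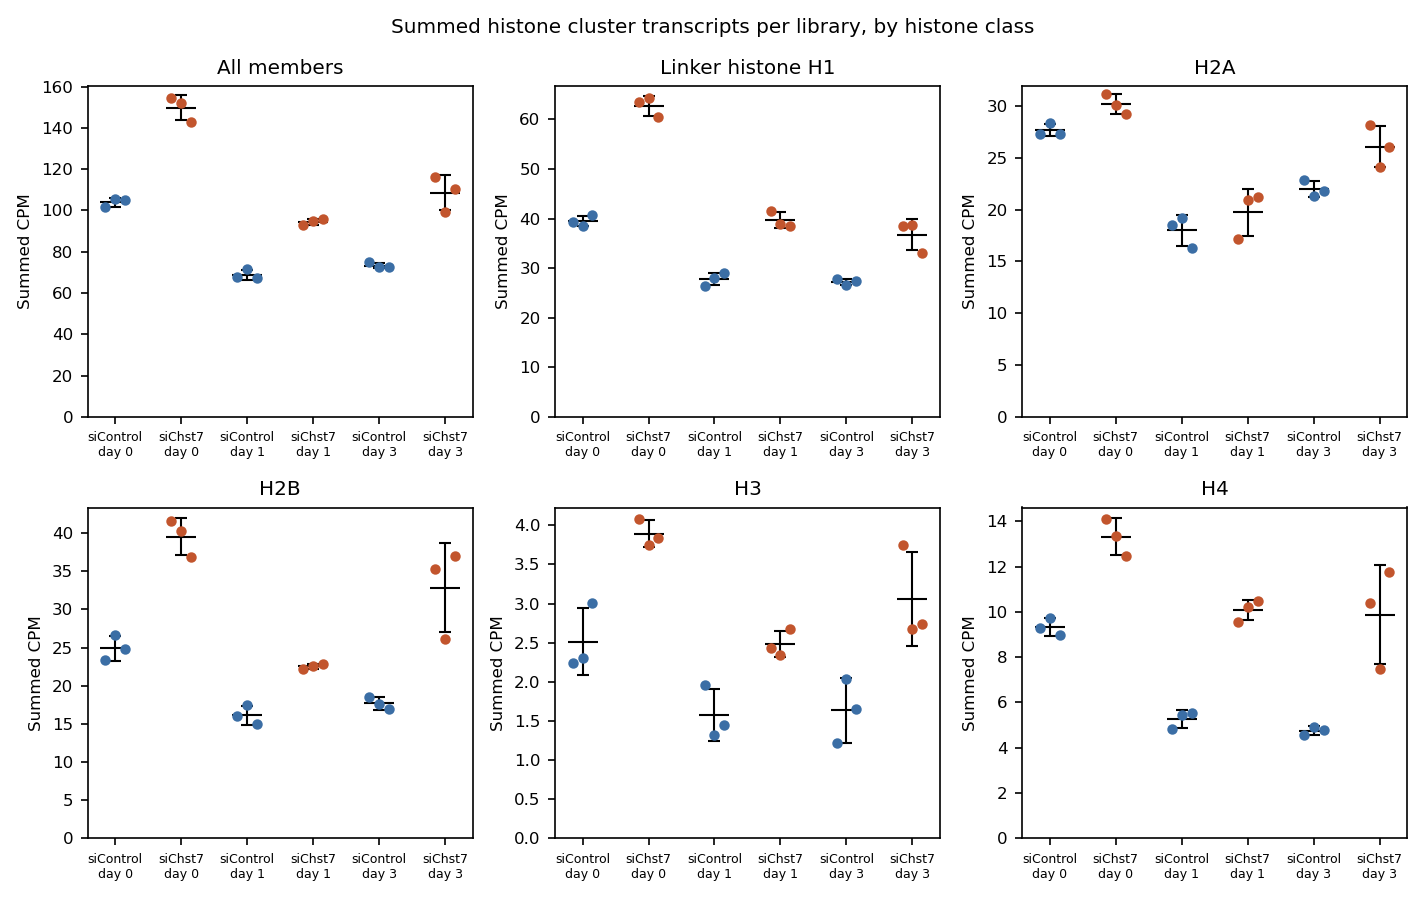
Summed CPM of all members and of each histone class (y axes from 0) in the 3 libraries of each group (x axis); points are libraries, lines and bars are mean ± SD. siChst7 libraries lie above siControl libraries of the same day for the sum of all members, with ratios of means of 1.44, 1.37 and 1.48, while the H2A sums lie closer together. Hist3h2a and Hist1h2al make up most of each H2A sum.

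With siChst7 at day 0, before the reprogramming factors were induced, histone transcripts were called higher in 10 of 41 tested members and lower in none (edgeR quasi-likelihood F-test, Benjamini-Hochberg adjusted p below 0.05 over 13802 genes). Among all tested genes 13.9% were called higher and 13.5% lower, and of those calls 50.6% were higher, or 69.4% when scaled by library totals alone. At an unadjusted p below 0.05 there were 15 higher and 0 lower, and DESeq2 called 10 higher and 0 lower. For these 2 measures, here and below, the shares of all genes were not computed. The median log2 fold change was 0.55 over the members and 0.0058 over all genes, and 34 of 41 members had a positive value. The 2 groups did not overlap in 17 of 41 members and in 43.5% of all tested genes. The count of called members was 4 to 7 over the fits without 1 library. It was 4 without siControl replicate 3, 6 without siChst7 replicate 1 and 6 without siChst7 replicate 2. Hist1h1b, Hist1h1c, Hist1h2bc and Hist1h2be were called in each of the 6 fits that left out 1 library.

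All 5 linker histone genes were among the 10. H1 proteins bind the DNA between nucleosomes. Hist1h1c was 35.4, 34.2 and 36.7 CPM in siControl and 56.3, 57.3 and 53.9 CPM in siChst7 cells, groups that did not overlap, with a log2 fold change of 0.66 ± 0.06 (SE; adjusted p = 2.38e-08). Hist1h1d was 1.34, 1.73 and 1.18 CPM in siControl against 2.06, 2.67 and 2.42 CPM in siChst7. Hist1h1b was 1.11, 1.13 and 1.49 CPM against 2.48, 1.95 and 2.05 CPM. For Hist1h1a the levels were 0.530, 0.531 and 0.535 against 0.992, 0.882 and 0.907 CPM. In each of these genes every siChst7 library lay above every siControl library. Their log2 fold changes were 0.75 ± 0.24, 0.80 ± 0.21 and 0.80 ± 0.29 (adjusted p = 0.0224, 0.00676 and 0.0429), and Hist1h1e, named after its values were seen, had 0.73 ± 0.24 (adjusted p = 0.0257). Without single libraries the adjusted p was 0.0713 to 0.118 for Hist1h1a, which was no longer called in any of the 6 fits. It was 0.0196 to 0.106 for Hist1h1d and 0.0167 to 0.127 for Hist1h1e, and each was not called in 4 of the 6 fits.

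Of the core histones, H2B supplied 3 called members of 10 tested, H3 1 of 7, H4 1 of 8 and H2A 0 of 11. Hist1h2bc was 13.0, 13.7 and 13.5 CPM in siControl and 25.3, 23.9 and 21.6 CPM in siChst7 cells, a log2 fold change of 0.82 ± 0.10 (adjusted p = 1.98e-06). Hist1h2be rose from 1.94, 2.57 and 2.27 to 5.06, 4.28 and 4.09 CPM, by 0.99 ± 0.18 (adjusted p = 0.000175), and Hist2h2bb from 1.54, 1.84 and 1.78 to 2.52, 2.76 and 2.53 CPM, by 0.59 ± 0.20 (adjusted p = 0.0288, and up to 0.103 without single libraries). Each of these H2B genes was higher in all siChst7 libraries. Hist1h4i, an H4 gene, rose from 6.32, 5.60 and 5.66 to 8.79, 8.28 and 8.18 CPM, by 0.52 ± 0.17 (adjusted p = 0.0226, and 0.0353 to 0.0772 without single libraries). Of the H2A genes 0 passed by DESeq2 or at an unadjusted p below 0.05. Hist3h2a stood at 17.6, 17.4 and 17.1 CPM in siControl and 19.7, 19.1 and 18.0 CPM in siChst7 cells, a log2 fold change of 0.12 with a 95% interval of -0.046 to 0.30 (adjusted p = 0.263), and Hist1h2al gave 0.085 with an interval of -0.15 to 0.32. Hist2h2be, an H2B gene with a poly-A signal and no stem-loop in its annotated transcript, stood at 3.96, 4.41 and 4.30 against 3.97, 3.71 and 4.18 CPM, and its groups overlapped.

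**Figure D2:**
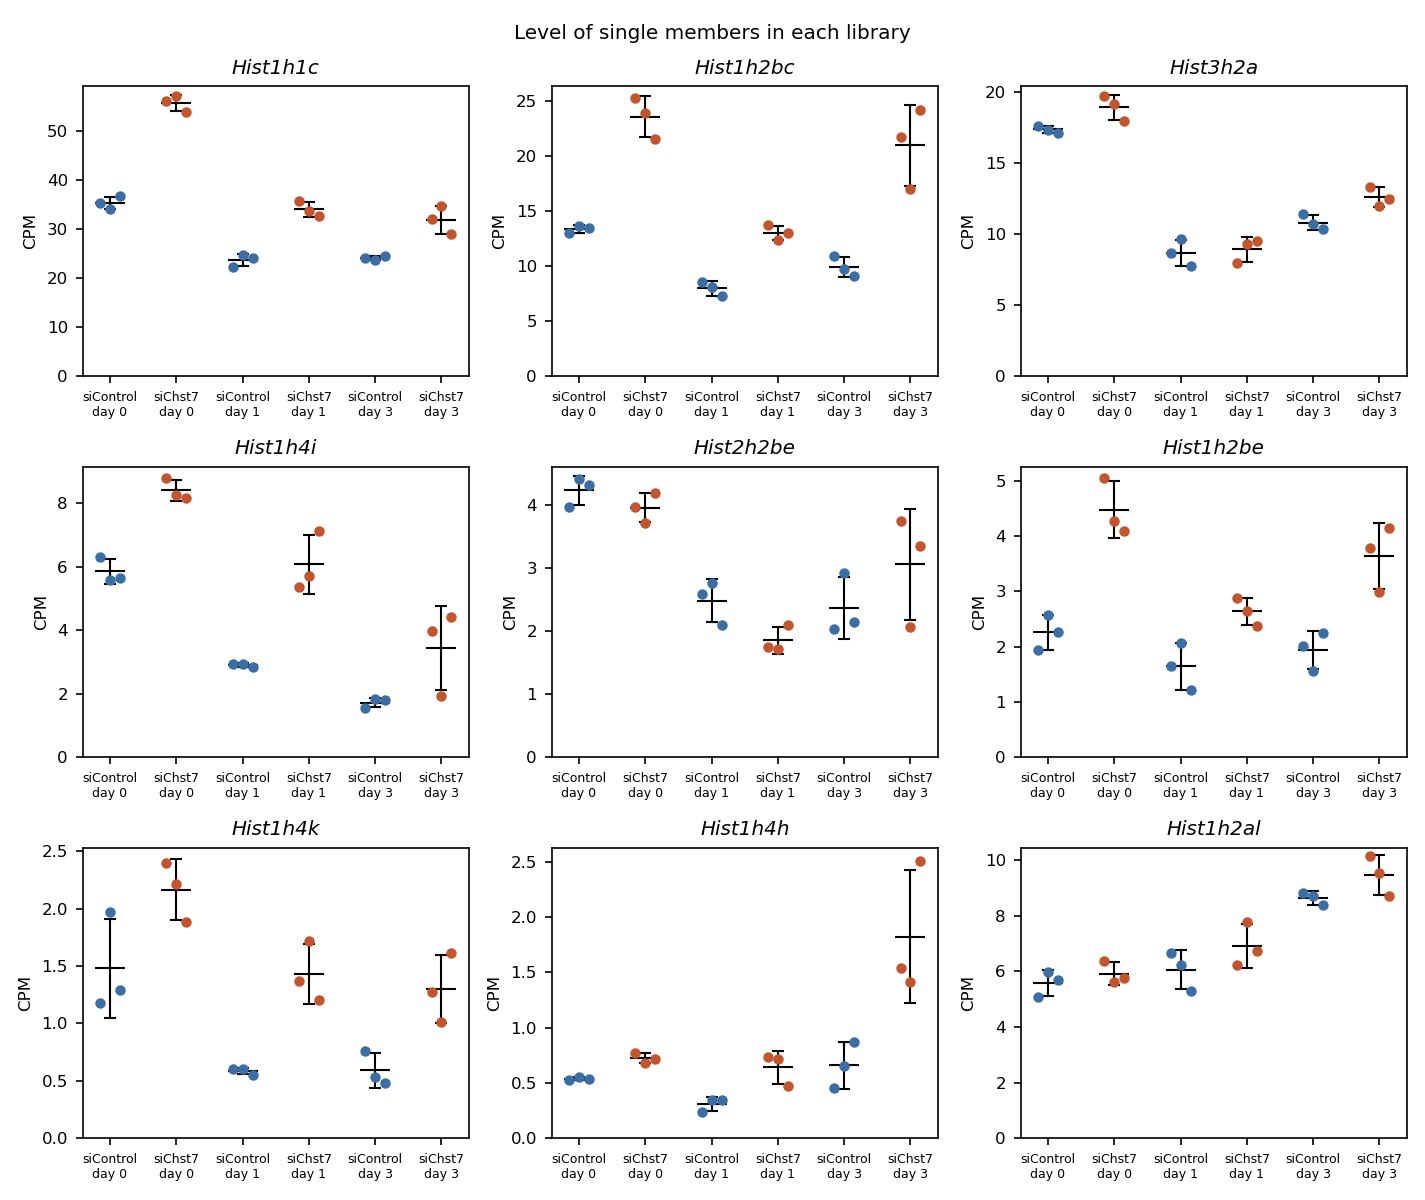
CPM (y axes from 0) of 9 members in each library of the 6 groups (x axis); points are libraries, lines and bars are mean ± SD. Hist1h1c, Hist1h2bc, Hist1h2be and Hist1h4i were higher in the siChst7 group at each day, whereas the groups of Hist1h2al and Hist2h2be overlapped at each day.

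At day 1 of doxycycline, 7 of 41 members were called higher with siChst7 and none lower, where 8.86% of all genes were called higher and 8.72% lower. The median was 0.52 over the members and 0.0102 over all genes. The count was 4 without siChst7 replicate 1. At an unadjusted p below 0.05 there were 13 higher and 0 lower, and DESeq2 called 8 higher and 0 lower. The called members were 3 of 8 H4, 2 of 10 H2B, 1 of 5 H1 and 1 of 7 H3 genes, again with 0 of 11 H2A genes (1 at an unadjusted p below 0.05, 0 by DESeq2). Among the named members called at day 1 the H4 genes had the larger values. Over all tested members the highest value, 2.28, was that of an H3 gene, and the class medians were 0.946 for H3 and 1.05 for H4. Hist1h4i was 2.95, 2.93 and 2.85 CPM in siControl and 5.38, 5.72 and 7.15 CPM in siChst7 cells, a log2 fold change of 1.06 ± 0.19 (adjusted p = 0.000396). Hist1h4k was 0.602, 0.603 and 0.553 CPM against 1.37, 1.72 and 1.20 CPM, by 1.29 ± 0.28 (adjusted p = 0.00201). Hist1h4h was 0.241, 0.345 and 0.349 CPM against 0.739, 0.721 and 0.471 CPM, by 1.04 ± 0.36 (adjusted p = 0.0491, and 0.0362 to 0.166 without single libraries). None of these 3 pairs of groups overlapped, where 18 of 41 members and 39.4% of all tested genes had no overlap.

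Hist1h1c rose at day 1 from 22.4, 24.8 and 24.2 to 35.7, 33.8 and 32.8 CPM, by 0.52 ± 0.06 on the log2 scale (adjusted p = 3.7e-06). Hist1h2bc rose from 8.61, 8.13 and 7.27 to 13.7, 12.4 and 13.0 CPM, by 0.70 ± 0.11 (adjusted p = 0.000119). Hist1h2be went from 1.66, 2.07 and 1.22 to 2.88, 2.65 and 2.38 CPM, by 0.68 ± 0.20 (adjusted p = 0.0218, and 0.0114 to 0.135 without single libraries). These 3 genes had called values at day 0 as well. Hist3h2a stood at 8.70, 9.62 and 7.79 CPM in siControl and 7.94, 9.30 and 9.53 CPM in siChst7 cells, overlapping groups with a log2 fold change of 0.036 (95% interval -0.16 to 0.23). Hist1h2al gave 0.19 (interval -0.048 to 0.44). Hist2h2be stood at 2.59, 2.76 and 2.09 CPM in siControl and 1.74, 1.72 and 2.09 CPM in siChst7 cells and was not called. Of the 41 members 34 had a positive value at day 1 and 7 a negative one.

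At day 3, 14 of 41 members were called higher with siChst7 and none lower, where 23.1% of all genes were called higher and 21.6% lower. The median was 0.74 over the members and 0.0089 over all genes, and 38 of 41 values were positive. At an unadjusted p below 0.05 there were 18 higher and 0 lower, and DESeq2 called 12 higher and 0 lower. The 14 comprised 2 of 5 H1, 3 of 11 H2A, 4 of 10 H2B, 1 of 7 H3 and 4 of 8 H4 genes. Without siChst7 replicate 1, the library with the high Rn45s level, 3 of the 41 values, all uncalled, changed sign (Hist1h2ai, Hist1h3e and Hist1h3i), and 8 members were called, all among the 14: Hist1h1c, Hist1h2bc, Hist1h2be, Hist1h4d, Hist1h4h, Hist1h4i, Hist1h4k and Hist2h2ac, of which Hist1h4d and Hist2h2ac are named after their values were seen.

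Of the 21 members at 0.5 CPM or more, 13 had their largest SD among siChst7 libraries at day 3. Hist1h2bc was 10.9, 9.73 and 9.12 CPM in siControl and 21.8, 17.0 and 24.2 CPM in siChst7 cells, a log2 fold change of 1.08 ± 0.11 (adjusted p = 1.26e-07, and 1.04 ± 0.12 without siChst7 replicate 1). Hist1h4i was 1.55, 1.82 and 1.79 CPM against 3.98, 1.93 and 4.41 CPM, so that siChst7 replicate 2 lay just above the control libraries, and the log2 fold change was 0.96 ± 0.21 (adjusted p = 0.000969). Hist1h4h was 0.452, 0.657 and 0.873 CPM against 1.54, 1.42 and 2.51 CPM, by 1.43 ± 0.27 (adjusted p = 0.000233). Hist1h4k was 0.762, 0.530 and 0.482 CPM against 1.28, 1.01 and 1.61 CPM, by 1.13 ± 0.27 (adjusted p = 0.00191). The 3 H4 genes did not overlap between groups, where 20 of 41 members and 49.1% of all tested genes had no overlap. Hist1h2be rose from 2.00, 1.57 and 2.25 to 3.78, 2.99 and 4.15 CPM, by 0.90 ± 0.19. Hist1h1c went from 24.1, 23.7 and 24.5 to 32.2, 34.7 and 29.0 CPM, by 0.41 ± 0.06 (adjusted p = 1.98e-05).

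Smaller or less stable rises at day 3 included Hist3h2a, at 11.4, 10.7 and 10.4 CPM in siControl and 13.3, 12.0 and 12.5 CPM in siChst7 cells, a log2 fold change of 0.22 ± 0.08 (adjusted p = 0.0386, and 0.0226 to 0.156 without single libraries). Hist1h2bj was 0.310, 0.191 and 0.367 CPM against 0.784, 0.517 and 0.741 CPM, by 1.22 ± 0.46 (adjusted p = 0.0364, and 0.0171 to 0.144 without single libraries). Of the H1 genes other than Hist1h1c, Hist1h1e was called (0.84 ± 0.25, adjusted p = 0.00833, and 0.053 without siChst7 replicate 1), and Hist1h1d, Hist1h1b and Hist1h1a had values of 0.58, 0.57 and 0.33 that did not pass the test. Hist2h2be was 2.03, 2.92 and 2.13 CPM against 3.75, 2.07 and 3.35 CPM, and Hist2h2bb was 1.02, 1.15 and 1.31 CPM against 1.89, 1.57 and 1.32 CPM; neither passed.

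Across the 3 days, which share no libraries, 20 of the 41 tested members were called higher at some day, 4 at all 3 days (Hist1h1c, Hist1h2bc, Hist1h2be and Hist1h4i), 3 at 2 days and 13 at 1 day. Of all 13802 tested genes 37.5% were called higher at some day, 1.22% at all 3 days, 5.84% at 2 days and 30.5% at 1 day. The value was positive at all 3 days in 29 of the 41 members and in 18.4% of all tested genes. By annotated 3′ end, 23 members had a transcript running at least 100 bases past the stem-loop or a poly-A signal near its end, 20 of them tested. The other 33, 21 of them tested, had neither. These 33 include annotated transcripts without a stem-loop match, such as those of Hist1h2bc and Hist1h4k, so they are not all short stem-loop ends. Called members numbered 5 and 5 at day 0, 4 and 3 at day 1, and 7 and 7 at day 3, and the median log2 fold changes were 0.57 and 0.55, 0.55 and 0.47, and 0.75 and 0.69.

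**Figure D3:**
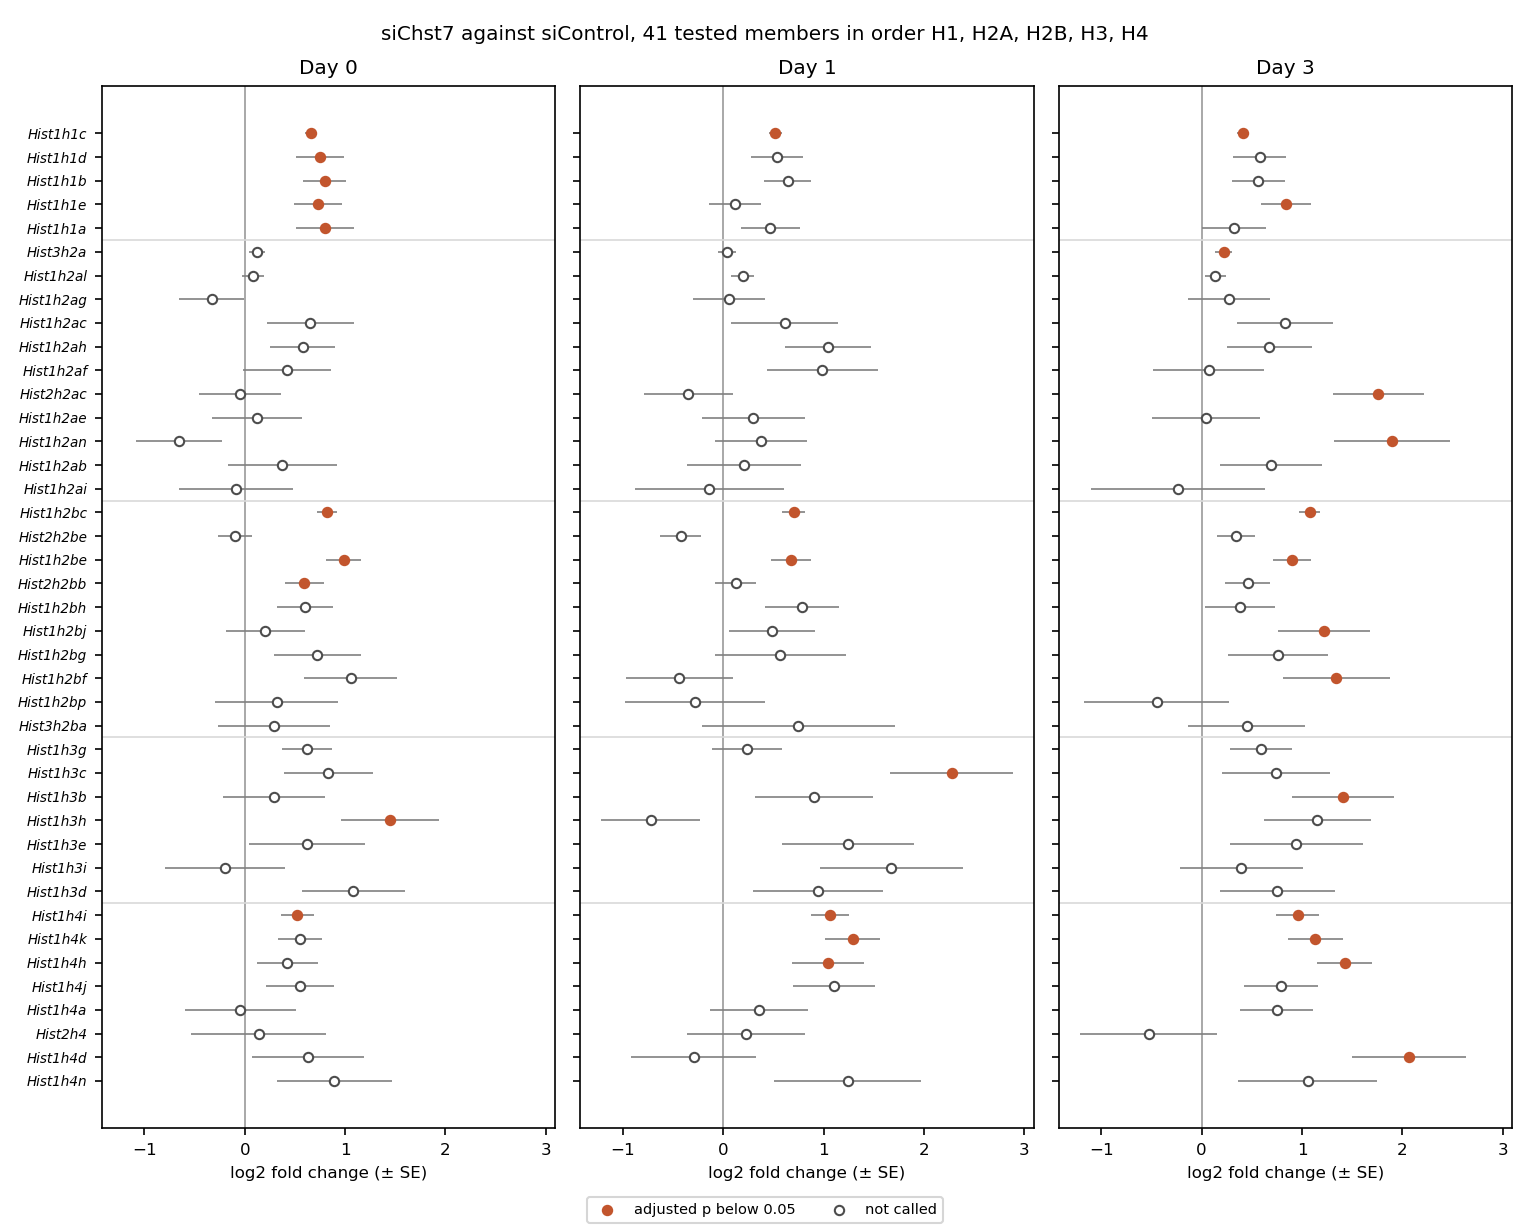
Log2 fold change of siChst7 against siControl (x axis, bars ± SE) for the 41 tested members (y axis) at days 0, 1 and 3; filled points passed an adjusted p of 0.05. Filled points number 10, 7 and 14, all to the right of 0, and all 5 H1 genes are filled at day 0.

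Other measures moved with siChst7 at day 3. Of 41 tested members 38 had a deposited length under 800 bases, a limit chosen after lengths were seen. The 644 other tested genes under 800 bases had a median log2 fold change of -0.0287 at day 0, 0.0786 at day 1 and 0.65 at day 3, where 43.8%, 68.8% and 89.6% of them were positive. The short members had medians of 0.56, 0.53 and 0.74, higher than those of the other short genes at days 0 and 1 and close at day 3. Without siChst7 replicate 1, the day 3 median was 0.54 over all members tested in that fit, of any length, and 0.59 over the other short genes. The 13117 other genes of 800 bases or more had medians of 0.0071, 0.00633 and -0.00589. Rn45s was 1526 ± 188 CPM in siControl and 1905 ± 340 in siChst7 at day 0, 2718 ± 159 and 3391 ± 280 at day 1, and 3735 to 5089 against 5642 to 19310 CPM at day 3. Of 17 listed RNAs without a poly-A tail 11 were in the table, 2 of them at 0, and 4 could be tested. None of the 4 passed at day 0 or day 1 with edgeR, by DESeq2 or at an unadjusted p below 0.05. Rn45s (1.28 ± 0.28, adjusted p = 0.000763), Rmrp (1.35 ± 0.45, adjusted p = 0.0168) and Rpph1 (1.71 ± 0.43, adjusted p = 0.00245) were higher at day 3, where DESeq2 called 2 of the 4. Without siChst7 replicate 1 the day 3 values were 0.49 for Rn45s (adjusted p = 0.00442), 0.51 for Rmrp (adjusted p = 0.374) and 1.26 for Rpph1 (adjusted p = 0.0376). The part of gene length or of tailless RNA in the members' values was not tested.

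**Figure D4:**
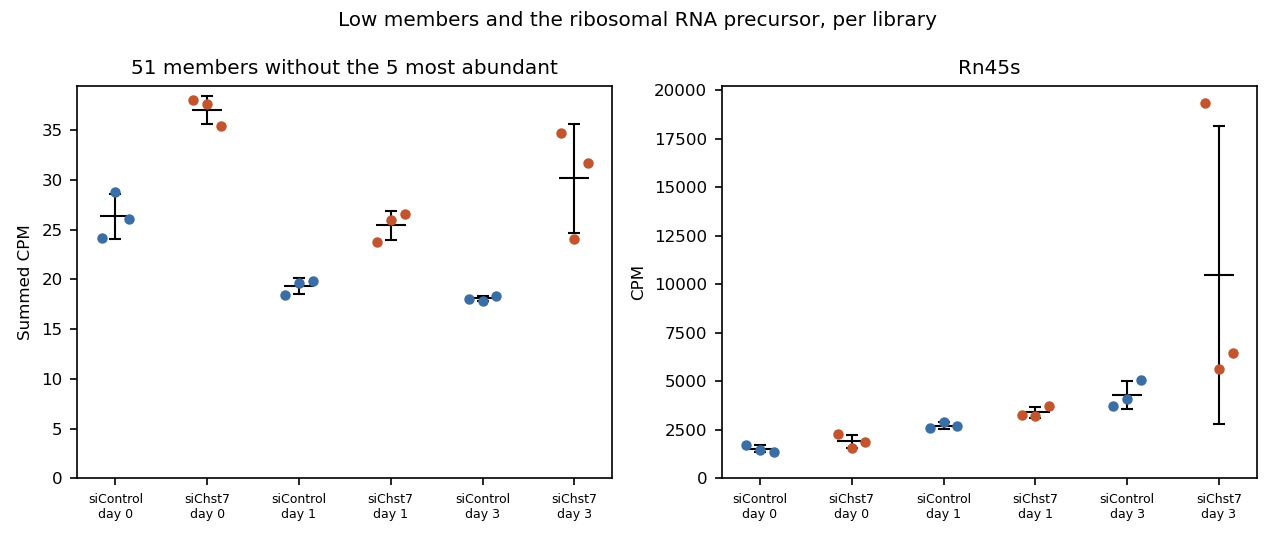
Left, summed CPM of the members without the 5 most abundant; right, CPM of Rn45s (y axes from 0) in each library of the 6 groups; points are libraries, lines and bars are mean ± SD. At days 0, 1 and 3 the sums at left averaged 26.3, 19.3 and 18.1 CPM in siControl and 37.0, 25.4 and 30.2 CPM in siChst7. Rn45s averaged 1526, 2718 and 4299 CPM in siControl and 1905, 3391 and 10470 CPM in siChst7, and reached 19310 CPM in 1 siChst7 library.

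In siControl cells the summed members averaged 104.0 CPM at day 0, 68.8 CPM at day 1 of induced factors and 73.3 CPM at day 3. From day 0 to day 1, 12 of 41 members were called lower and 1 higher, where 30.8% of all genes were called lower and 29.5% higher, so the share called lower (12 of 41) was near the background. The median was -0.57 over the members and -0.0016 over all genes, and 29 of 41 values were negative. Hist3h2a was 17.6, 17.4 and 17.1 CPM at day 0 and 8.70, 9.62 and 7.79 CPM at day 1, a log2 fold change of -1.00 ± 0.09 (adjusted p = 8.46e-10). Hist1h1c (-0.57 ± 0.06), Hist1h2bc (-0.74 ± 0.11), Hist1h4i (-1.01 ± 0.19), Hist1h4k (-1.33 ± 0.27) and Hist2h2be (-0.77 ± 0.19) also fell. The libraries of the 2 days did not overlap for any of these 6 genes. Groups without overlap were seen in 15 of 41 members and in 69.1% of all tested genes. With Hist1h4k, the following core histone genes had the largest falls among members at 0.5 CPM or more. Hist1h2ah (H2A) went from 0.991, 0.620 and 0.424 to 0.271, 0.230 and 0.262 CPM, a log2 fold change of -1.40 ± 0.41 (adjusted p = 0.00559, and 0.0505 without siControl day 0 replicate 1). Hist1h2bh (H2B) went from 1.11, 1.02 and 1.14 to 0.572, 0.345 and 0.436 CPM, a log2 fold change of -1.27 ± 0.35 (adjusted p = 0.00341). The 1 member called higher was Hist1h3h, at 2 to 14 counts a library, with a value of 1.31 ± 0.52 (adjusted p = 0.0336, and up to 0.16 without single libraries).

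From day 1 to day 3 the members did not move together. Called were 6 higher and 5 lower, where 22.8% of all genes were called higher and 32.3% lower, with medians of 0.0175 over the members and -0.0473 over all genes. Of all calls 41.4% were higher, or 65% when scaled by library totals alone. The count of 11 was 7 without siControl day 1 replicate 2. Hist1h2al rose from 6.65, 6.24 and 5.29 to 8.84, 8.71 and 8.38 CPM (0.51 ± 0.11, adjusted p = 0.000386), Hist3h2a from 8.70, 9.62 and 7.79 to 11.4, 10.7 and 10.4 CPM (0.31 ± 0.09, adjusted p = 0.00472), Hist1h2bc by 0.31 ± 0.11 (adjusted p = 0.0269) and Hist1h4h by 1.09 ± 0.35 (adjusted p = 0.0124). Hist1h4i fell further, from 2.95, 2.93 and 2.85 to 1.55, 1.82 and 1.79 CPM (-0.75 ± 0.22, adjusted p = 0.00608), and Hist2h2bb fell from 1.42, 2.64 and 1.92 to 1.02, 1.15 and 1.31 CPM (-0.78 ± 0.22, adjusted p = 0.00474, and 0.0628 without siControl day 1 replicate 2). Without single libraries the adjusted p reached 0.124 for Hist1h2bc and 0.0787 for Hist1h4h.

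Over the whole course, from day 0 to day 3, 16 of 41 members were called lower and 2 higher, where 39.5% of all genes were called lower and 33.9% higher; 16 of 41 is again near the share of all genes. Of all calls 46.2% were higher, or 57.8% when scaled by library totals alone. The median was -0.54 over the members and -0.0477 over all genes, and 36 of 41 values were negative. Hist1h4i had the largest fall among members at 0.5 CPM or more, -1.76 ± 0.20 (adjusted p = 5.01e-08), followed by Hist1h4k (-1.34 ± 0.26, adjusted p = 9.7e-05) and Hist1h2ah (-1.27 ± 0.39, adjusted p = 0.00584, and 0.0593 without siControl day 0 replicate 1). Hist1h1c fell by 0.56 ± 0.06, Hist3h2a by 0.69 ± 0.08, Hist2h2be by 0.83 ± 0.18 and Hist1h1b by 0.93 ± 0.25 on the log2 scale. Hist1h2al, the annotated pseudogene, went the other way, from 5.07, 6.00 and 5.68 to 8.84, 8.71 and 8.38 CPM (0.63 ± 0.11, adjusted p = 1.72e-05). Between day 0 and each later day 9 of 41 members were called lower both times, in comparisons that share the day 0 libraries, as were 26.4% of all tested genes.

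**Figure D5:**
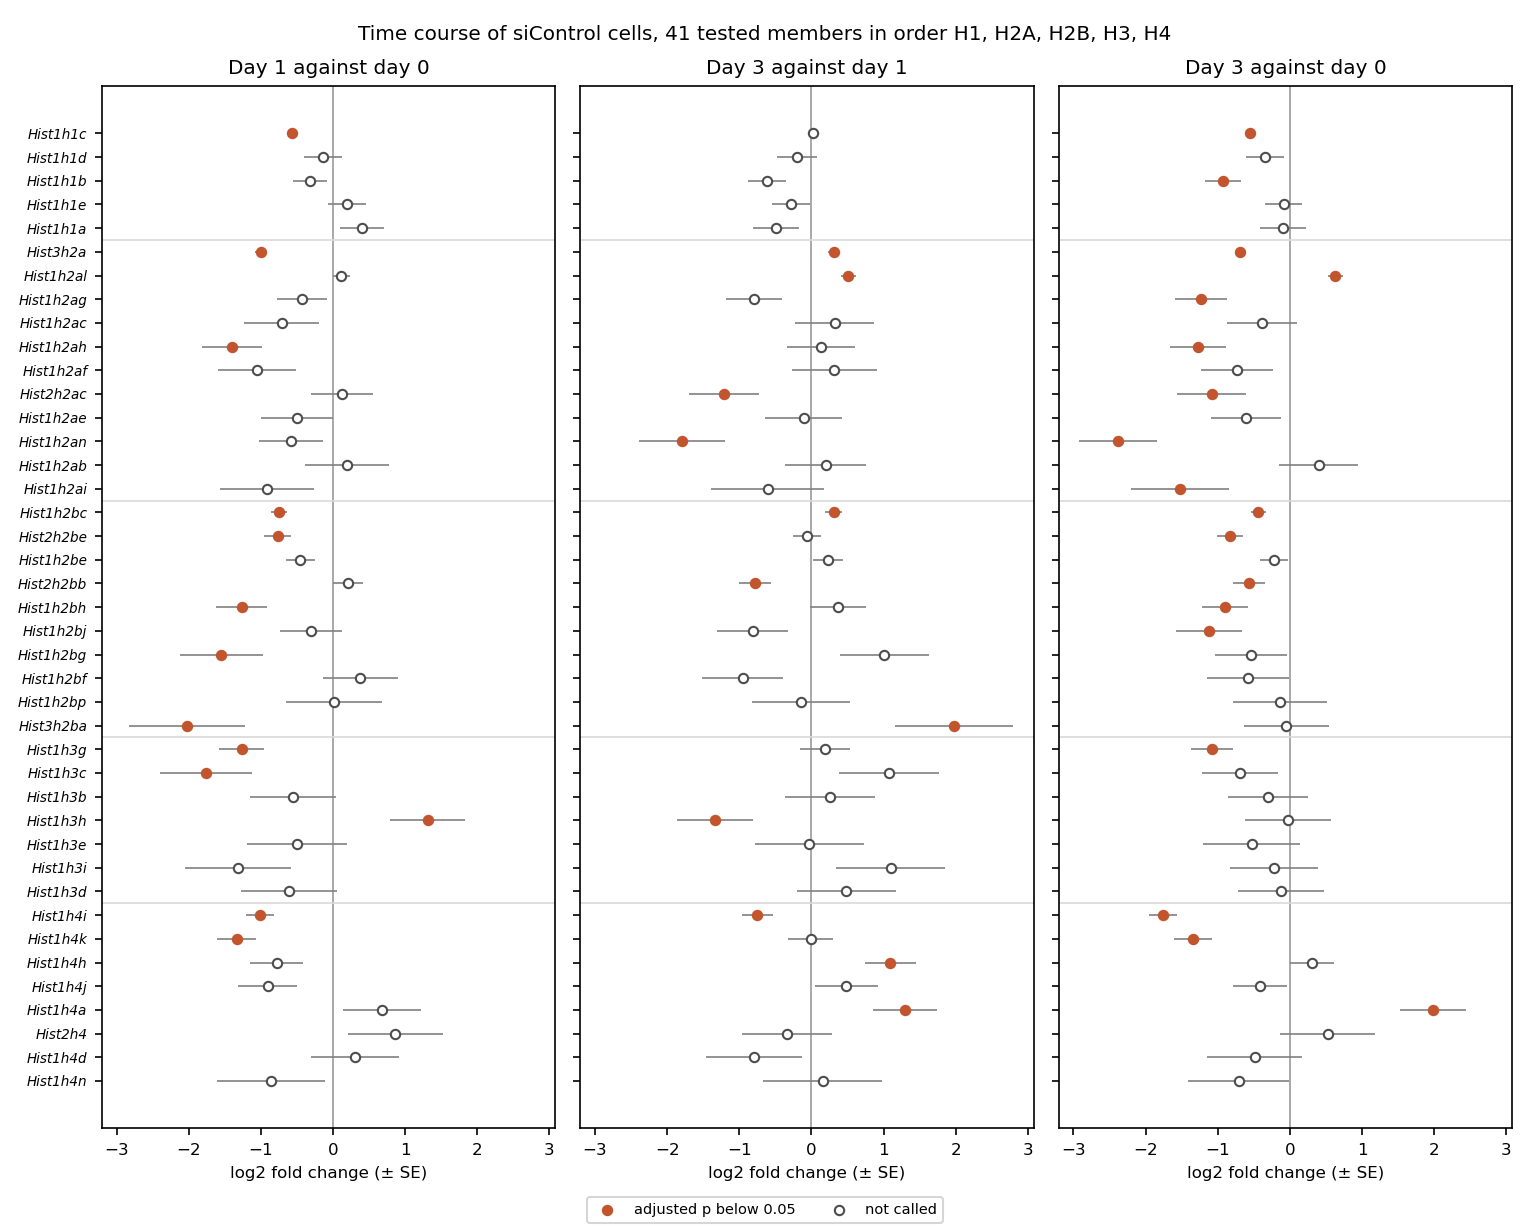
Log2 fold change between days in siControl cells (x axis, bars ± SE) for the 41 tested members (y axis); filled points passed an adjusted p of 0.05. Most values lie left of 0 for day 1 and day 3 against day 0 (medians -0.57 and -0.54) and on both sides for day 3 against day 1.

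Whether the siChst7 effect differed between days was tested by interaction terms. Between day 1 and day 0 it differed in 1 of 41 members, lower for Hist1h3h, where 5.5% of all genes were called lower and 6.2% higher. Of the 12 libraries of the comparison, leaving out siControl day 0 replicate 1 kept the count at 1 and leaving out any other gave 0, and 3 members had an unadjusted p below 0.05. Between day 3 and day 0 it differed in 3 members, 2 higher and 1 lower, where 20.7% of all genes were called higher and 18.1% lower. The count was 7 without siChst7 day 3 replicate 2. The 1 lower was Hist1h1c, whose effect of 0.66 at day 0 and 0.41 at day 3 differed by -0.24 ± 0.09 (adjusted p = 0.0287, and 0.0023 to 0.0731 without single libraries). The 2 higher, Hist1h2an and Hist2h2ac, are H2A genes of 2 to 30 counts a library, named after their values were seen. The median difference between day 3 and day 0 was 0.11 over the members, and 0.67 over the 644 other short genes.

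The machinery that makes and handles histones was read from lists of other genes. The counts of each list below stand beside these shares of all genes. With siChst7, 13.9% were called higher and 13.5% lower at day 0, 8.86% and 8.72% at day 1, and 23.1% and 21.6% at day 3. In siControl cells, 29.5% were called higher and 30.8% lower from day 0 to day 1, and 33.9% and 39.5% from day 0 to day 3. Of 16 measured genes for histone messenger synthesis and 3′ end processing, siChst7 raised 2 and lowered 2 at day 0, raised 3 and lowered 1 at day 1, and raised 5 and lowered 2 at day 3. Cpsf2, a subunit of the cleavage factor, was lower at each day (-0.43, -0.38 and -0.32, adjusted p = 6.77e-08, 1.24e-06 and 4.24e-06). Slbp, which binds the stem-loop, stood at 174.3, 178.4 and 178.7 CPM in siControl and 165.2, 165.1 and 155.9 CPM in siChst7 cells at day 0, lower without overlap but not past the test (-0.13, adjusted p = 0.101). At day 3 Slbp was higher, at 150.1, 156.1 and 157.8 against 195.7, 160.2 and 199.4 CPM (0.26, adjusted p = 0.000888, and 0.21 with adjusted p = 0.00967 without siChst7 replicate 1), with siChst7 replicate 2 just above the control libraries. Without siChst7 replicate 1, 2 of the 16 were raised and 2 lowered at day 3. Medians were 0.0212, 0.0451 and 0.0119. In siControl cells 5 of the 16 rose and 7 fell from day 0 to day 1, and 3 rose and 9 fell by day 3. Lsm11, part of the U7 particle that processes the 3′ end, fell by 0.66 and 0.86 on the log2 scale.

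Of 30 genes of DNA replication and S phase, with which histone messages usually rise and fall, siChst7 raised none and lowered 6 at day 0, raised 1 and lowered 2 at day 1, and raised 14 and lowered 5 at day 3 (edgeR). At day 0, 2 were higher at an unadjusted p below 0.05 and 0 by DESeq2. Their medians were -0.054, -0.0028 and 0.12, beside member medians of 0.55, 0.52 and 0.74. At day 0 Rpa2 (-0.47, adjusted p = 9.01e-06), Gins2 (-0.28, adjusted p = 0.000548) and Rrm2 (-0.15, adjusted p = 0.00375) were lower, while the histone sum was 1.44 times higher. At day 3 Ccne2, a cyclin of S phase entry, was higher (0.78, adjusted p = 1.23e-06), and without siChst7 replicate 1 the list had 13 raised and 3 lowered. In siControl cells 11 of the 30 rose and 9 fell from day 0 to day 1, and 6 rose and 16 fell by day 3.

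Chaperones carry histones to DNA. Of 19 such genes, siChst7 raised 2 and lowered 3 at day 0, raised 4 and lowered 1 at day 1, and raised 7 and lowered 3 at day 3, where Hat1 (0.94, adjusted p = 1.26e-07) and Npm1 (0.78, adjusted p = 4.12e-06) had the smallest p. Without siChst7 replicate 1, 6 chaperone genes were raised and 0 lowered at day 3. In siControl cells 5 rose and 10 fell from day 0 to day 1, and 4 rose and 12 fell by day 3. Replacement histones are encoded outside the clusters, and most have ordinary poly-A tails. Of 11, siChst7 raised 2 and lowered none at day 0 (0 lower at an unadjusted p below 0.05 or by DESeq2), raised 3 and lowered 1 at day 1, and raised 5 and lowered 1 at day 3, where H2afz rose by 0.89 (adjusted p = 5.72e-07) and H3f3a by 0.52 (adjusted p = 0.000144). In siControl cells H2afx fell by 1.56 (adjusted p = 8.69e-17) and H3f3a rose by 0.85 (adjusted p = 6.16e-08) from day 0 to day 3, when 3 of the 11 rose and 7 fell. Their summed level of 1886 to 2614 CPM exceeded that of the cluster members in every library.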

How the data were processed

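The authors deposited whole-number counts per gene for 18 libraries, with 1 column of gene lengths (another unit, in bases). Per the submitters' processing notes, HISAT2, Subread, featureCounts and DESeq2 were used with build mm10. For versions, strand setting, reads with several matches and whether a fragment counted as 1 or 2, the entry is: not given in the sources used here. Of values from 1 to 20, 63% were even over all genes and 56.4% among the members.

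Members and lists were chosen with earlier results of these data known. Counts were tested with edgeR 4.0.16 (R 4.3.3) in 1 quasi-likelihood fit of 6 groups with filterByExpr, TMM scaling and 12 residual degrees of freedom; tests are two-sided, and a gene was called at a Benjamini-Hochberg adjusted p below 0.05 over 13802 genes. An SE is the absolute log2 fold change over the square root of F. CPM use TMM-scaled totals. Members chosen for library values were the 10 of highest mean CPM. Added to them, per comparison, were up to 3 called members of largest change each way at 0.5 CPM or more. Their library values are not printed for every group. Alternatives were DESeq2 1.42.0, other scalings, no filter, the compared groups alone, a replicate block and each library left out. The fit was checked on simulated counts. Sequences and coordinates come from GENCODE M21 (GRCm38, the assembly mm10 names) and, for promoters, RefSeq (GRCm38.p6), matched by symbol, 56 and 50 of 56 members. A protein table was not used here.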

Additional observations from a re-analysis of the deposited data

Results flagged for a closer look

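In 4 members the siChst7 effect differed between days by the interaction test of the edgeR fit. For Hist1h3h, an H3 gene of 2 to 23 counts a library of which 6.1% of 50-base stretches were unique, the effect at day 1 was lower than at day 0 by -2.17 on the log2 scale (adjusted p = 0.0469, and 0.0463 to 0.131 without single libraries). For Hist1h1c, whose libraries lie close together, the effect was smaller at day 3 than at day 0, with a difference of -0.24 (adjusted p = 0.0287). For Hist1h2an, of 2 to 30 counts and 14.2% unique stretches, the difference between day 3 and day 0 was 2.55 (adjusted p = 0.00754, and 0.005 to 0.0335 without single libraries); its control libraries at day 3 held 3, 2 and 5 counts. For Hist2h2ac it was 1.81 (adjusted p = 0.0241, and 0.0124 to 0.0918 without single libraries).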

How the results depend on the processing

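Counts of called members, and the values of the named members, were recomputed under DESeq2, RLE size factors, library totals alone, no filter, the compared groups alone, a replicate block and without each library. Outside the fits that left out a library, the counts of called members stayed within 1.5 times their value except for the interaction between day 1 and day 0, where the 1 member became 0 with DESeq2, 0 with no filter, 0 with the replicate block and 2 with the compared groups alone. Same-numbered samples did not deviate together at any day (correlations of -0.0122 to 0.0646), so the numbers were not taken to pair samples; with the replicate block 10, 6 and 13 members were called for siChst7 at days 0, 1 and 3. Without single libraries, counts ranged over 4 to 7 at day 0, 4 to 7 at day 1 and 8 to 17 at day 3 for siChst7, over 11 to 12, 7 to 11 and 14 to 17 for siControl day 1 against 0, 3 against 1 and 3 against 0, and over 0 to 1 and 2 to 7 for the interactions at days 1 and 3. The uncalled value of Hist3h2a for siChst7 at day 1 was -0.038 without siControl replicate 3 and -0.011 without siChst7 replicate 3, within a range of -0.038 to 0.117, against 0.036 with all libraries; of 840 recomputed values of 20 named members, taken where called and for Hist3h2a and Hist1h2al with siChst7 at each day, 2 changed sign, 133 no longer passed and 705 kept direction and side of the threshold. Scaling by library totals alone moved the median of all genes by 0.15 in siControl day 3 against days 1 and 0 and by -0.11 in the day 3 interaction. It also moved the share of calls that were higher from 50.6% to 69.4% for siChst7 at day 0, from 41.4% to 65% for siControl day 3 against day 1, from 46.2% to 57.8% for day 3 against day 0, and from 53% to 30.2% and from 53.3% to 35.7% for the interactions. Depth limits members of a few counts a library, and the 15 untested members could show no difference.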

Other observations

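Among 10218 genes outside the members with a mean of at least 5 CPM, those whose log2 CPM followed the summed members most closely over the 18 libraries were Prps1l3 (Pearson r = 0.95), Bbs12 (0.935), Atm (0.928), Galnt7 (0.928) and Gchfr (0.923). The libraries share groups, so these values are descriptions. Bbs12 averaged 14.9 CPM in siControl and 17.9 CPM in siChst7 at day 0, 7.89 and 10.2 at day 1, and 8.15 and 12.6 at day 3. Atm, a kinase of the DNA damage response, averaged 111.1 and 138.4 CPM at day 0, 93.7 and 98.0 at day 1, and 91.2 and 106.7 at day 3. Both therefore had their highest mean with siChst7 at day 0, as 27 of the 56 members did, 17 others having it with siChst7 at day 3. The lowest mean was in siControl at day 1 for 24 members and in siControl at day 3 for 18.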
